A study of Cricetulus griseus with 9 samples.

Results

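Aminoacyl-tRNA synthetases and their scaffolds, together with the Trmt, Trmu and Pus enzymes that modify tRNA, were followed in MI5-4 cells, a Chinese hamster ovary line described by its submitters as null for hexokinase. Members were taken from the deposited table by a rule on gene symbols, and 49 of its 6753 genes met the rule. They comprised 20 cytosolic synthetases, 10 mitochondrial synthetases (names ending in 2), 2 scaffold proteins (Aimp1 and AIMP2), 13 Trmt genes including Trmu, and 4 Pus genes. Tarsl2, whose name ends in 2, codes for a cytosolic enzyme and was counted there, and Gars and KARS, whose products serve both compartments, were also kept with the cytosolic set. Eef1e1, the other scaffold of the synthetase complex, was left out by the rule. Mitochondrial Cars2, Ears2, Mars2, Nars2, Pars2, Rars2 and Wars2 were not listed under these names, nor was cytosolic Nars1. Both sets of synthetases are therefore incomplete.

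The libraries formed 3 groups of 3. WTHK2 were hexokinase-null cells labelled as expressing wild-type HK2, LAC were empty-vector cells given 10 mM sodium lactate for 24 h, and EV were empty-vector cells without it. All groups shared the hexokinase-null background and the same serum-supplemented medium containing glucose. The labels do not say whether the WTHK2 cells were a clone or a pool, nor whether the 3 libraries of a group came from separate cultures; p-values here cover the spread among these libraries, which may be technical. Values are normalized CPM (read numbers scaled to library size by the authors), and a fold change is the log2 ratio of CPM + 1 in a limma fit over all 6753 genes with Benjamini-Hochberg adjustment. A gene was called higher or lower at an adjusted p under 0.05.

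Each synthetase attaches a particular amino acid to its tRNA, which the ribosome then uses to read codons. Mitochondria translate their own few messages with separate enzymes that are encoded in the nucleus, made in the cytosol and imported. Several cytosolic synthetases sit in a large complex held together by Aimp1, AIMP2 and Eef1e1, while Trmt, Trmu and Pus enzymes methylate, thiolate or isomerise bases of the tRNA itself. In mammalian cells many cytosolic synthetase genes are known targets of ATF4, the transcription factor of the amino acid response.

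Effective library sizes lay between 18050959 and 26238659 reads, and the least abundant member in any library still had 432 reads on that scale. Hk2, the gene the construct is meant to supply, was not higher in the libraries labelled WTHK2: it stood at 65.3 ± 1.33 CPM there, 67.8 ± 2.92 CPM in LAC and 67.3 ± 2.11 CPM in EV (SD, n = 3 each; log2 fold change WTHK2 against EV -0.044, adjusted p = 0.522 in limma). Every direction given for WTHK2 therefore rests on the label. Of 5 markers of fibroblast-type cultures, 3 were listed (Vim, S100a6 and Col3a1), and all 3 were higher in WTHK2 than in EV and than in LAC, while 1 (S100a6) was higher in LAC than in EV. Among all genes 21.0% were higher in WTHK2 than in EV, 8.37% in WTHK2 than in LAC and 22.4% in LAC than in EV. The S100a6 call in WTHK2 against LAC was lost without LAC replicate 3 (adjusted p = 0.0554, limma) and without the variance trend (0.0766). Vim in LAC against EV was at 0.035 on the log2 scale and not called, but at -0.063 (adjusted p = 0.0127) with quantile normalization. The part of these markers in the results was not tested. Markers of epithelial, leukocyte and endothelial cells had 0 listed genes. The lowest mean of any listed gene was 20.4 CPM, and genes that were not listed, synthetases included, could not be compared. The 4 listed transcripts of the mitochondrial genome exceeded their EV mean in every WTHK2 library (median log2 difference 0.73, 0.45 and 0.40 in replicates 1 to 3) and in every LAC library (0.80, 0.52 and 0.45). Of 60 listed genes on a list written by hand for proteins above 2500 residues, 49 were lower and 1 higher in WTHK2 than in EV. In LAC 54 were lower and 1 higher than in EV. Among all genes 25.4% were lower in WTHK2 and 27.1% in LAC. The protein lengths were not checked against a reference. In bulk RNA, fewer cells of a type and less RNA per cell cannot be told apart.

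Across the whole set, changes ran both ways and most were small. Against EV, 11 of 49 members were higher and 9 lower in WTHK2, so 40.8% were called, while 46.4% of all genes were (21.0% higher and 25.4% lower). In LAC, 15 members were higher and 6 lower than in EV, or 42.9%, while 49.5% of all genes were called (22.4% higher and 27.1% lower). After rescaling of all libraries to a common median these counts became 15 higher and 8 lower in WTHK2, and 20 higher and 4 lower in LAC. The same rescaling moved the share of all genes called to 27.1% higher and 20.2% lower in WTHK2 and to 30.4% higher and 21.5% lower in LAC, and the median of all genes to 0.027 and 0.038. Between WTHK2 and LAC, 3 members were higher and 9 lower in WTHK2, or 24.5%, against 16.1% of all genes (8.37% higher and 7.76% lower). Values did not overlap between the groups for 30 members in WTHK2 against EV, 28 in LAC against EV and 19 in WTHK2 against LAC, which among all genes was so for 57.1%, 57.8% and 29.0%. The median log2 fold change of the members was 0.017 in WTHK2 against EV, 0.057 in LAC against EV and -0.031 in WTHK2 against LAC, beside -0.0082, -0.0035 and 0.0041 over all genes. Both comparisons with EV share the same 3 EV libraries. Without WTHK2 replicate 1, 7 members were called higher in WTHK2 than in EV, and without EV replicate 2, 6 were. Of all genes, 17.8% and 16.1% were called higher there. Calls that held with each library left out in turn numbered 13 of 20 in WTHK2 against EV, 12 of 21 in LAC against EV and 8 of 12 in WTHK2 against LAC.

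**Figure D1:**
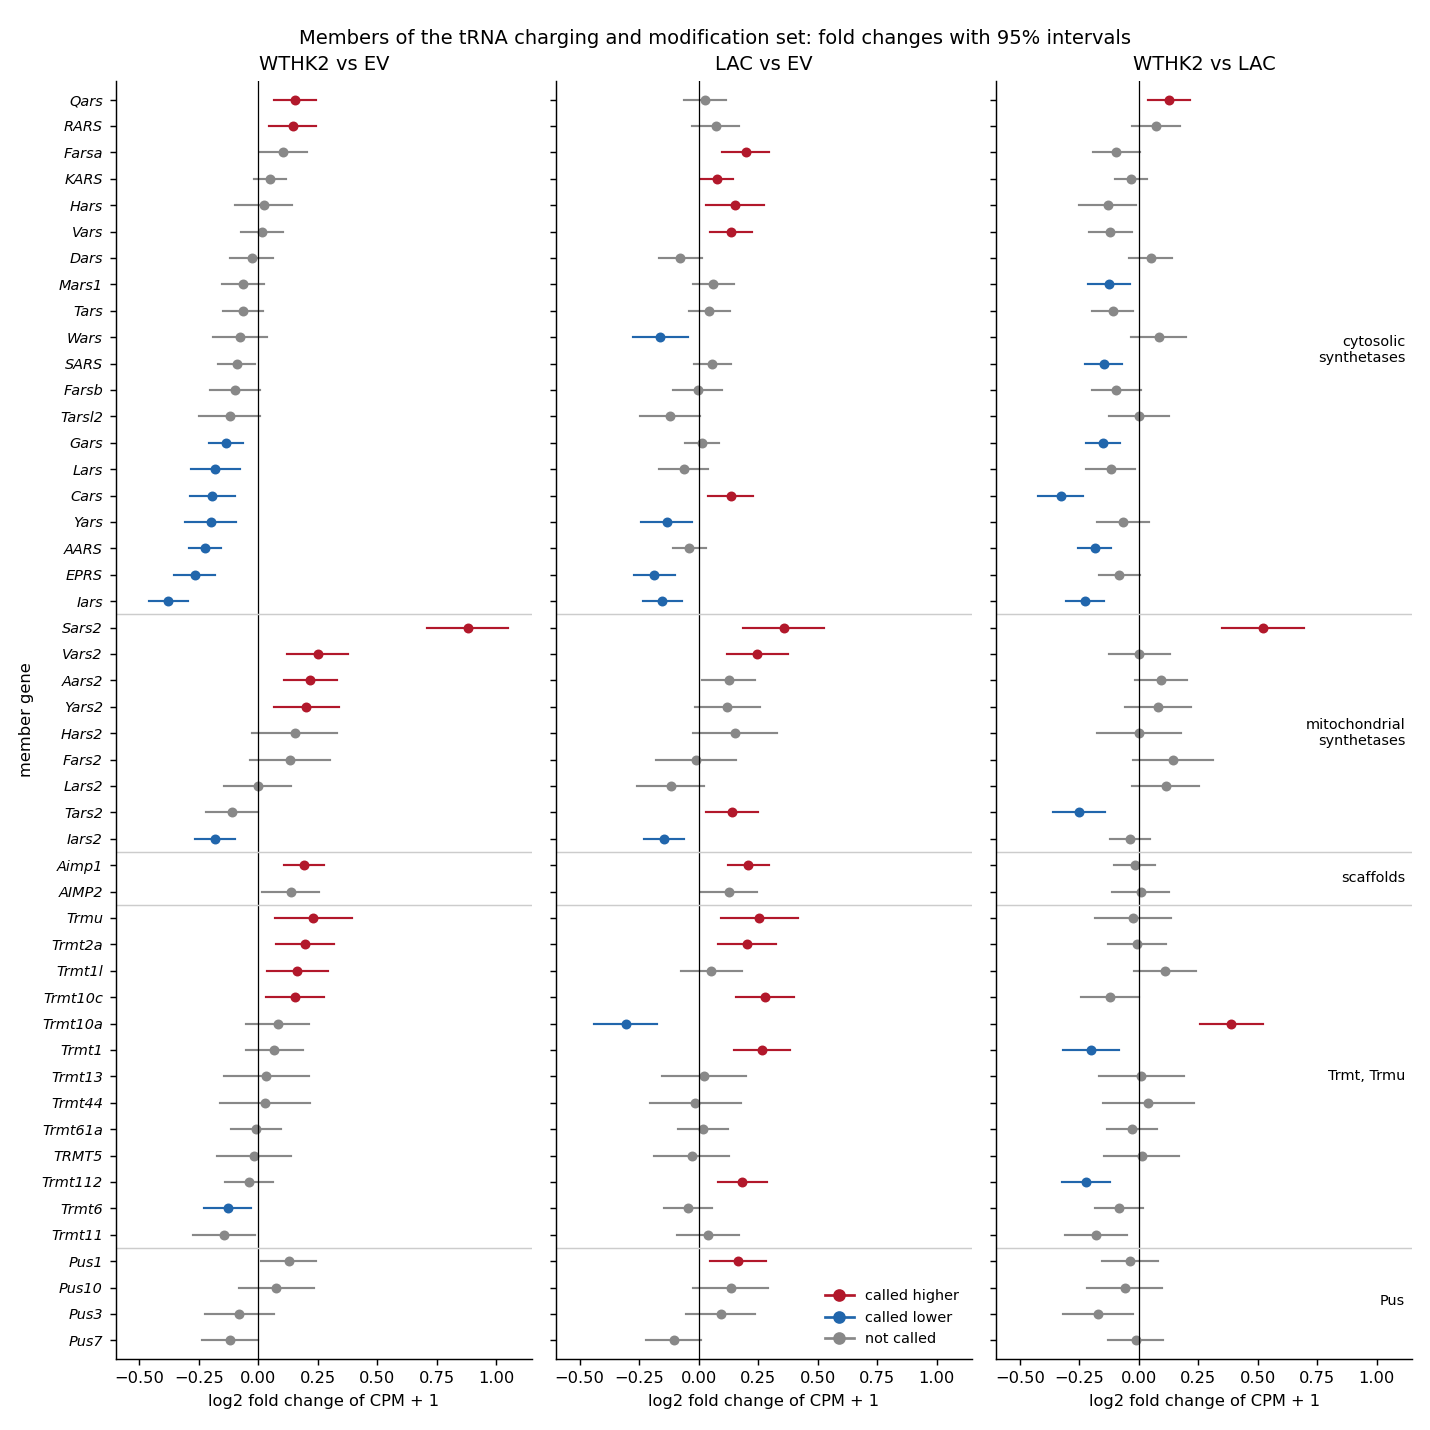
Log2 fold change (CPM + 1 scale) of 48 of the 49 members, ordered by role, in WTHK2 against EV, LAC against EV and WTHK2 against LAC. Points are limma estimates with 95% intervals, red marks members called higher, blue those called lower and grey those not called at an adjusted p under 0.05. Sars2 lies farthest to the right in WTHK2 against EV, at 0.88, and Iars farthest to the left, at -0.38.

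Sars2, the mitochondrial seryl-tRNA synthetase, had the largest change of any member, in both comparisons with EV and between WTHK2 and LAC. It stood at 95.7, 78.5 and 80.0 CPM in WTHK2, 66.8, 54.8 and 54.6 CPM in LAC, and 47.1, 41.4 and 48.1 CPM in EV. No value overlapped between any of the 3 groups, with WTHK2 highest, LAC between and EV lowest. The log2 fold change was 0.88 in WTHK2 against EV (SE 0.082, adjusted p = 9.68e-08, limma), 0.36 in LAC against EV (adjusted p = 0.00136) and 0.52 in WTHK2 against LAC (adjusted p = 1.49e-04). All 3 calls held with any library left out. The first replicates of WTHK2 and LAC had the highest Sars2 value of their group and also the highest level of mitochondrially encoded transcripts; the part of those transcripts in the result was not tested. Without both libraries Sars2 was still called higher than EV, by 0.79 in WTHK2 and 0.26 in LAC.

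The RefSeq gene table places no gene across Sars2. Mrps12, a mitochondrial ribosomal protein gene that lies next to it, had means of 23.8 CPM in WTHK2, 24.1 CPM in LAC and 24.2 CPM in EV, with log2 fold changes of -0.019 in WTHK2 (adjusted p = 0.892) and -0.0097 in LAC (adjusted p = 0.944, limma). Nfkbib, an inhibitor of NF-kB on the same stretch, was higher in both groups than in EV, by 0.19 in WTHK2 and 0.33 in LAC on the log2 scale, the call in WTHK2 being lost without WTHK2 replicate 1 (adjusted p = 0.0717) or EV replicate 1 (adjusted p = 0.0789). Sirt2, a deacetylase gene also near Sars2, was not called in either.

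Of the 9 other mitochondrial synthetases, 3 were higher and 1 lower in WTHK2 than in EV, with a median log2 fold change of 0.13, and 2 were higher and 1 lower in LAC, with a median of 0.12. The shares called, 44.4% in WTHK2 and 33.3% in LAC, stood beside 46.4% and 49.5% of all genes. With Sars2 the counts of the 10 were 4 higher and 1 lower in WTHK2 (median 0.14) and 3 higher and 1 lower in LAC (median 0.12). Vars2, which charges valine tRNA in mitochondria, measured 213, 182 and 197 CPM in WTHK2, 219, 176 and 197 CPM in LAC, and 165, 164 and 167 CPM in EV. Every WTHK2 and LAC value lay above all EV values, and the first replicate was the highest of its group in both. Its log2 fold change was 0.25 in each comparison with EV (SE 0.062; adjusted p = 0.00268 in WTHK2 and 0.00258 in LAC, limma), and 0.0018 between WTHK2 and LAC.

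Aars2, the mitochondrial alanyl enzyme, had 105, 96.8 and 103 CPM in WTHK2, 101, 89.5 and 96.0 CPM in LAC, and 89.9, 83.6 and 88.4 CPM in EV. The WTHK2 libraries lay above all EV libraries (log2 fold change 0.22, adjusted p = 0.0023, limma), whereas LAC overlapped EV (0.13, adjusted p = 0.0547) and was called higher under both rescalings (adjusted p of 0.0139 and 0.0367). Yars2, the mitochondrial tyrosyl enzyme, had 53.0, 55.6 and 52.3 CPM in WTHK2, 50.2, 52.0 and 49.8 CPM in LAC, and 45.6, 42.8 and 51.5 CPM in EV. It was higher in WTHK2 by 0.20 on the log2 scale (adjusted p = 0.0171), a call that was lost without WTHK2 replicate 2, EV replicate 1 or EV replicate 2 (adjusted p of 0.0701, 0.0628 and 0.118). In LAC its log2 fold change was 0.12 (adjusted p = 0.135), and it was called under both rescalings (adjusted p of 0.0471 and 0.0479).

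Iars2, the mitochondrial isoleucyl enzyme, went the other way. It had 290, 307 and 319 CPM in WTHK2, 299, 316 and 324 CPM in LAC, and 341, 343 and 354 CPM in EV. Both groups lay wholly below EV, with log2 fold changes of -0.18 in WTHK2 (adjusted p = 0.00114, limma) and -0.15 in LAC (adjusted p = 0.00579). Its RefSeq interval overlaps Bpnt1, a phosphatase gene, and because the strand setting of the counting is not given, reads of the 2 genes cannot be told apart; Bpnt1 itself was not called against EV.

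Tars2, the mitochondrial threonyl enzyme, separated WTHK2 from LAC. It stood at 61.9, 63.5 and 60.4 CPM in WTHK2, 77.2, 71.1 and 73.3 CPM in LAC, and 67.0, 67.1 and 66.7 CPM in EV. WTHK2 lay below EV and LAC above it, without overlap. Only the difference between WTHK2 and LAC held with any library left out (log2 fold change -0.25, adjusted p = 0.00228, limma): in WTHK2 against EV it was -0.11 (adjusted p = 0.0859), and the call in LAC against EV (0.14, adjusted p = 0.0329) was lost without LAC replicate 1 or 3 or any EV replicate (adjusted p 0.0593 to 0.149). Fars2, Hars2 and Lars2 were not called in any comparison.

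**Figure D2:**
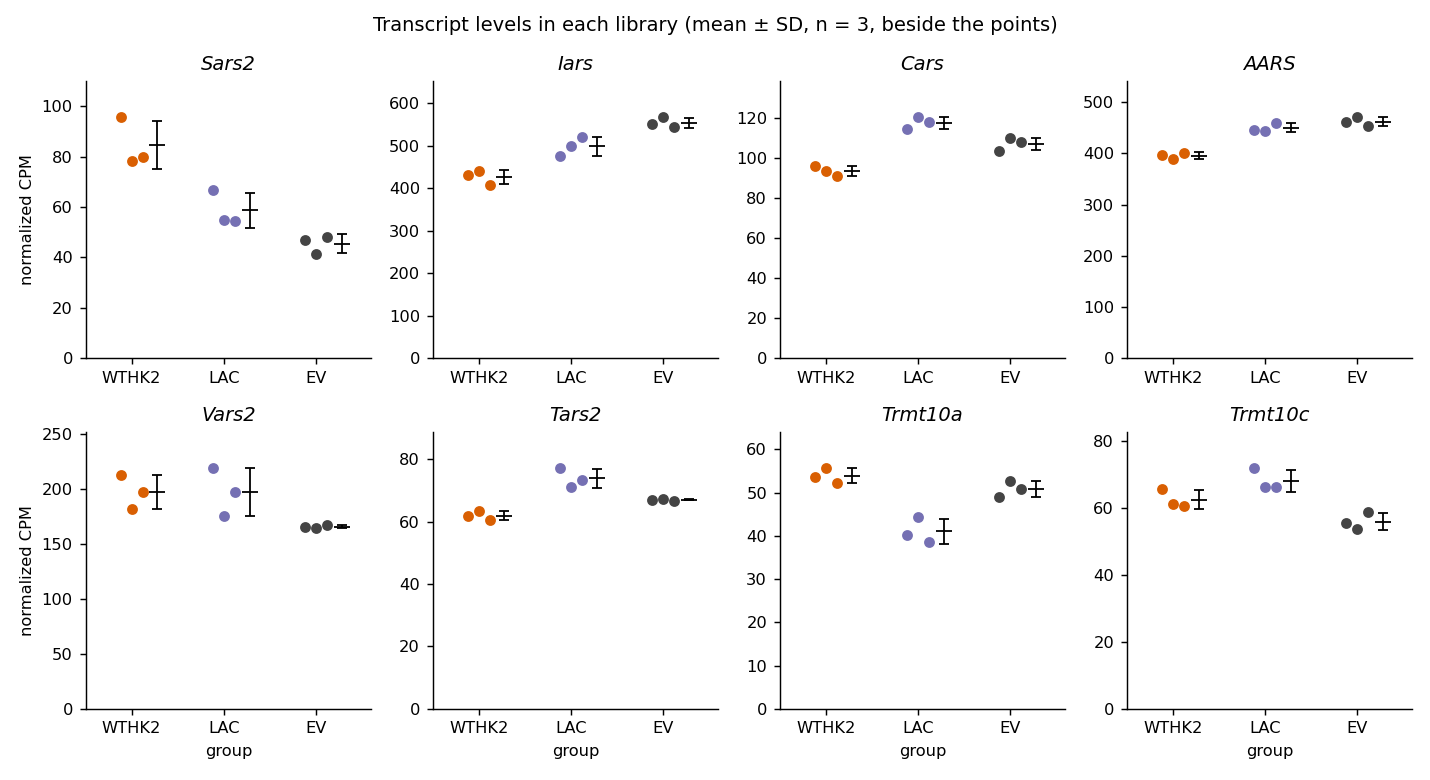
Normalized CPM in each library of Sars2, Iars, Cars, AARS, Vars2, Tars2, Trmt10a and Trmt10c. Points are libraries, and bars are the mean ± SD of 3. Sars2 runs from 78.5 to 95.7 CPM in WTHK2, from 54.6 to 66.8 CPM in LAC and from 41.4 to 48.1 CPM in EV, whereas Iars runs from 407 to 440, from 476 to 521 and from 545 to 567 CPM in the same groups.

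Of 20 cytosolic synthetases, 2 were higher and 7 lower in WTHK2 than in EV, with a median log2 fold change of -0.084, and 5 were higher and 4 lower in LAC, with a median of 0.021. The share called was 45.0% in each comparison, beside 46.4% of all genes in WTHK2 (25.4% lower) and 49.5% in LAC (27.1% lower). Between WTHK2 and LAC, 1 was higher and 6 lower in WTHK2, with a median of -0.10, or 35.0% called beside 16.1% of all genes; the difference between the lists' counts was not tested. Without any 1 library the count called higher in LAC ran from 1 (without EV replicate 1) to 5, and that called lower from 2 (without LAC replicate 1, EV replicate 1 or EV replicate 2) to 4; in WTHK2 7 or 8 were lower. By library, the median difference of this list from the EV mean was -0.11, -0.12 and -0.064 in WTHK2, and 0.0059, 0.037 and 0.021 in LAC. Long-protein genes were also lower in each of these libraries, with median differences of -0.21, -0.30 and -0.31 across WTHK2 libraries and of -0.32, -0.23 and -0.33 across LAC libraries; their part in the falls below was not tested. That list was written by hand with earlier results known.

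Iars, the isoleucyl-tRNA synthetase, had the largest fall of the set. It had 431, 440 and 407 CPM in WTHK2, 476, 499 and 521 CPM in LAC, and 550, 567 and 545 CPM in EV. The 3 groups did not overlap, with WTHK2 lowest and EV highest. Its log2 fold change was -0.38 in WTHK2 against EV (SE 0.039, adjusted p = 2.9e-07, limma), -0.15 in LAC against EV (adjusted p = 0.00309) and -0.23 in WTHK2 against LAC (adjusted p = 3.6e-04). Another gene lies across part of Iars in the RefSeq table, so its reads could be shared.

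EPRS, a fusion enzyme that charges both glutamate and proline tRNAs, also fell in both groups. It had 322, 333 and 326 CPM in WTHK2, 334, 365 and 339 CPM in LAC, and 405, 404 and 373 CPM in EV. The log2 fold change was -0.27 in WTHK2 (adjusted p = 3e-05, limma) and -0.19 in LAC (adjusted p = 9.2e-04), and WTHK2 and LAC did not differ past the threshold (-0.082, adjusted p = 0.187). EPRS too is crossed by another gene in that table. Yars, the tyrosyl enzyme, had 79.2, 89.6 and 83.8 CPM in WTHK2, 85.8, 86.9 and 91.9 CPM in LAC, and 95.9, 98.4 and 96.2 CPM in EV. It was lower by 0.20 in WTHK2 (log2 fold change -0.20, adjusted p = 0.00366), while the call in LAC (-0.13, adjusted p = 0.0373) was lost without LAC replicate 1, LAC replicate 2 or any EV replicate (adjusted p 0.0706 to 0.118), and under both rescalings.

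AARS, the alanyl enzyme, fell in WTHK2 against both EV and LAC. It stood at 397, 388 and 401 CPM in WTHK2, 446, 443 and 460 CPM in LAC, and 461, 471 and 454 CPM in EV. WTHK2 lay below every other library, and LAC overlapped EV. The log2 fold change was -0.22 in WTHK2 against EV (adjusted p = 2.28e-05, limma), -0.039 in LAC against EV (adjusted p = 0.346; -0.087 and called lower with quantile normalization, adjusted p = 0.0186) and -0.19 in WTHK2 against LAC (adjusted p = 5.62e-04). Gars, the glycyl enzyme of both compartments, was also lower in WTHK2 than in EV and in LAC. It had 315, 310 and 308 CPM in WTHK2, 340, 343 and 354 CPM in LAC, and 342, 349 and 336 CPM in EV. Its log2 fold changes were -0.14 in WTHK2 against EV (adjusted p = 0.00284, limma) and -0.15 in WTHK2 against LAC (adjusted p = 0.0041). In LAC against EV it was at 0.015 (adjusted p = 0.744). Gars is another member that shares its interval with a second gene.

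Cars, the cysteinyl enzyme, was the member called lower in WTHK2 and higher in LAC. It had 96.1, 93.4 and 91.3 CPM in WTHK2, 115, 121 and 118 CPM in LAC, and 104, 110 and 108 CPM in EV. No value overlapped between groups, with EV in the middle. Its log2 fold change was -0.19 in WTHK2 against EV (adjusted p = 0.0018, limma) and -0.33 in WTHK2 against LAC (adjusted p = 3.48e-05). The rise in LAC, 0.13 (adjusted p = 0.0189), was lost without LAC replicate 2 (adjusted p = 0.0541) or EV replicate 1 (adjusted p = 0.0915).

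SARS, the cytosolic partner of Sars2, was close to the threshold against EV in WTHK2. It had 238, 230 and 244 CPM in WTHK2, 256, 264 and 268 CPM in LAC, and 250, 252 and 257 CPM in EV, with a log2 fold change of -0.091 in WTHK2 against EV (adjusted p = 0.0501, limma). It was called lower there with a 50 CPM floor on the mean (adjusted p = 0.0437), in a fit of the 6 libraries (0.0449), with voom (0.0459), and without WTHK2 replicate 3 (0.0396), LAC replicate 1 (0.0484) or LAC replicate 2 (0.0434). In LAC against EV it was called, as higher, under 1 alternative, rescaling to a common median (0.099, adjusted p = 0.0364). It was lower in WTHK2 than in LAC by 0.15 (log2 fold change -0.15, adjusted p = 0.00896), a call lost without WTHK2 replicate 2 (adjusted p = 0.0525). Lars, the leucyl enzyme, was lower in WTHK2 than in EV (-0.18, adjusted p = 0.00564). Mars1, the methionyl enzyme, was lower in WTHK2 than in LAC (-0.13, adjusted p = 0.0446), a call lost without 7 of the libraries in turn (adjusted p up to 0.195) and without the variance trend.

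Qars and RARS, the glutaminyl and arginyl enzymes, rose in WTHK2. Qars had 204, 188 and 190 CPM in WTHK2, 184, 178 and 171 CPM in LAC, and 173, 171 and 178 CPM in EV, a log2 fold change of 0.15 in WTHK2 against EV (adjusted p = 0.00611, limma). Its difference between WTHK2 and LAC (0.13, adjusted p = 0.0466) was lost without 7 of the libraries in turn, up to an adjusted p of 0.20, and under both rescalings. RARS had 105, 115 and 106 CPM in WTHK2, 99.9, 106 and 105 CPM in LAC, and 98.8, 98.9 and 97.6 CPM in EV, with 0.14 in WTHK2 against EV (adjusted p = 0.0184), lost without WTHK2 replicate 2 (adjusted p = 0.116) or EV replicate 3 (adjusted p = 0.0547).

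Farsa, the catalytic subunit of the phenylalanyl enzyme, had 168, 160 and 166 CPM in WTHK2, 187, 162 and 179 CPM in LAC, and 152, 156 and 150 CPM in EV. Its log2 fold change in LAC was 0.20 (adjusted p = 0.00179, limma) and in WTHK2 0.10 (adjusted p = 0.0758). In WTHK2 it was called higher after rescaling to a common median (0.14, adjusted p = 0.0229), in a fit of the 6 libraries (0.0376) and without LAC replicate 2 (0.0347). Farsb, the partner subunit, was not called in any comparison (-0.0035 in LAC and -0.098 in WTHK2). Vars (valyl), Hars (histidyl) and KARS (lysyl, of both compartments) were called higher in LAC by 0.14, 0.15 and 0.079, but each call was lost when some libraries were left out: Vars without LAC replicate 3 or EV replicate 1 (adjusted p 0.0525 and 0.0735), Hars without LAC replicates 1 or 3 or EV replicates 1 or 2 (0.055 to 0.171), and KARS without 7 of the libraries in turn (0.0513 to 0.16). KARS was also lost with quantile normalization, at 0.023. Wars (tryptophanyl) was called lower in LAC (-0.16, adjusted p = 0.0204) although 1 LAC value, 120 CPM, lay among the EV values of 117 to 127 CPM. The Wars call was lost without LAC replicates 1 or 3 or EV replicates 1 or 2 (0.0634 to 0.12), and under both rescalings. In the RefSeq table Hars overlaps Hars2, and Wars overlaps Wdr25 and another gene.

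Members of the large synthetase complex did not move as a block. Of its 8 synthetases, 2 were higher (Qars and RARS) and 3 lower (Iars, EPRS and Lars) in WTHK2, and 1 was higher (KARS) and 2 lower (Iars and EPRS) in LAC. Of the 12 cytosolic synthetases outside it, 0 were higher and 4 lower (AARS, Cars, Gars and Yars) in WTHK2, and 4 were higher and 2 lower in LAC; without EV replicate 1 those LAC counts were 1 and 0. Of the 8, 62.5% were called in WTHK2 and 37.5% in LAC, and of the 12, 33.3% and 50%. Among all genes the shares were 46.4% and 49.5%. This split is a textbook assignment made with the values known. Aimp1, a scaffold of the complex, had 198, 195 and 196 CPM in WTHK2, 203, 189 and 204 CPM in LAC, and 176, 173 and 165 CPM in EV. Both groups lay above EV, by 0.19 in WTHK2 (adjusted p = 8.45e-04, limma) and 0.21 in LAC (adjusted p = 3.54e-04) on the log2 scale. AIMP2, the other scaffold, lay above EV in every library of both groups but missed the threshold, at 0.14 in WTHK2 (adjusted p = 0.0574) and 0.13 in LAC (adjusted p = 0.0684). Under both rescalings AIMP2 was called higher in both groups; it overlaps Eif2ak1, a gene that was lower in both groups.

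For 11 pairs of a cytosolic and a mitochondrial enzyme of the same amino acid, the cytosolic fold change was below the mitochondrial one in 10 in WTHK2 against EV, in 7 in LAC against EV and in 9 in WTHK2 against LAC. The median of the differences was -0.20, -0.094 and -0.19 on the log2 scale. Farsa and Farsb share Fars2 as partner, so 2 of the 11 pairs are not separate. Hars and Hars2 overlap each other in the RefSeq table, so reads of that pair could be shared. The serine pair was farthest apart, at -0.97 in WTHK2 against EV and -0.30 in LAC against EV. In WTHK2 the alanine pair followed at -0.44 and the tyrosine pair at -0.40; threonine was the pair with the opposite order, at 0.046. Over whole lists, the cytosolic median minus the mitochondrial median was -0.23 in WTHK2 against EV, -0.10 in LAC against EV and -0.14 in WTHK2 against LAC. These differences describe the lists and carry no test.

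**Figure D3:**
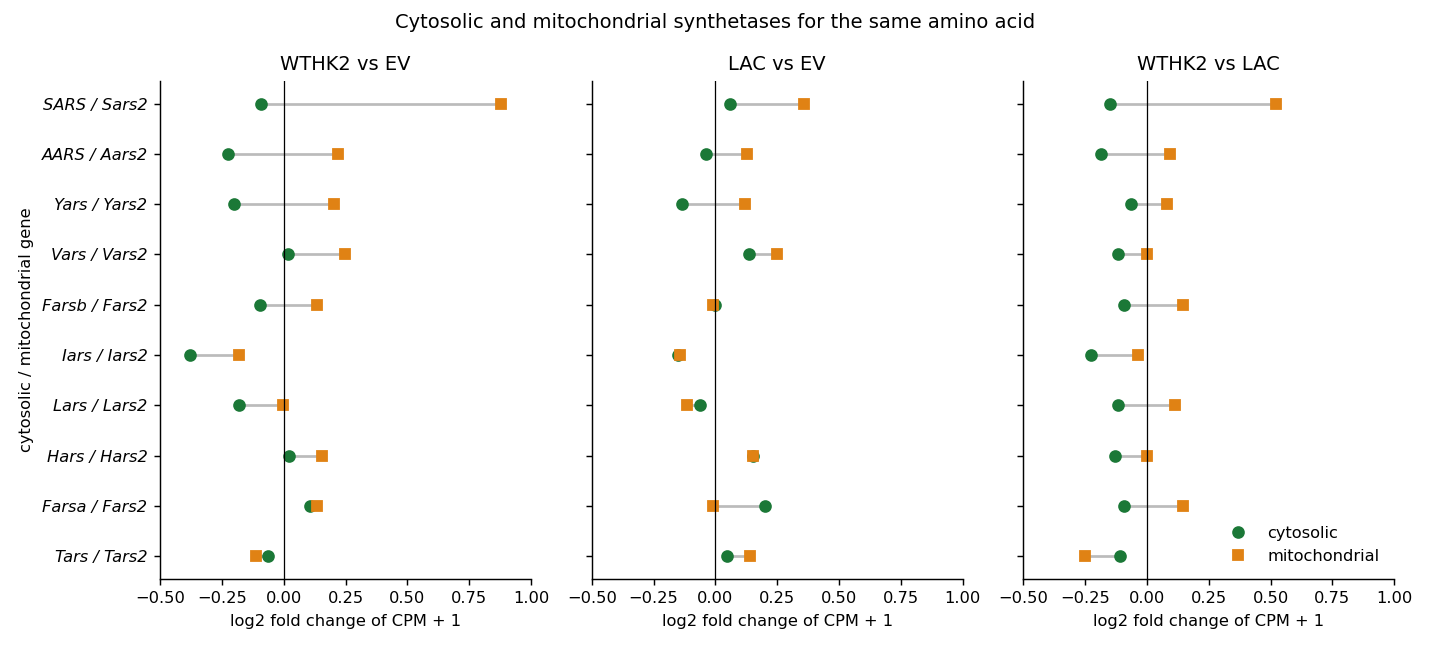
Log2 fold change of the cytosolic and the mitochondrial synthetase of each amino acid, joined by a line, for 10 of the 11 pairs in the 3 comparisons. The cytosolic point lies left of the mitochondrial one in 9 of these 10 pairs in WTHK2 against EV and in 6 of 10 in LAC against EV.

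**Figure D4:**
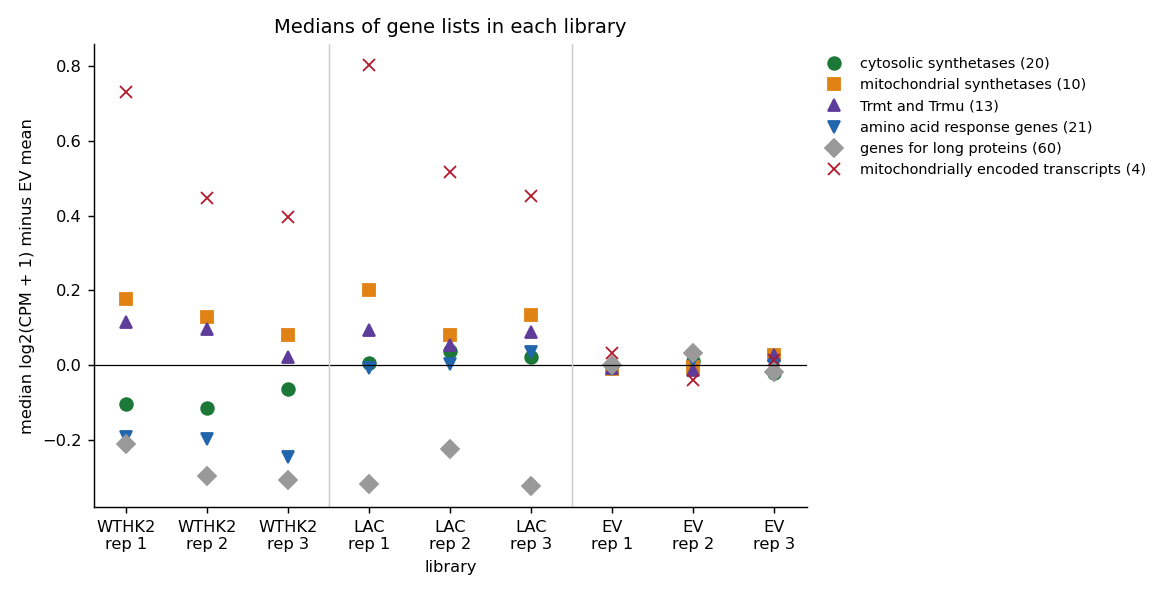
Median log2 difference from the EV mean of cytosolic synthetases, mitochondrial synthetases, Trmt and Trmu genes, mitochondrially encoded transcripts, genes for long proteins and amino acid response genes, in each library. Cytosolic synthetases sit at -0.11, -0.12 and -0.064 in WTHK2 and mitochondrial synthetases at 0.18, 0.13 and 0.080, while mitochondrially encoded transcripts reach 0.73 in WTHK2 replicate 1 and 0.80 in LAC replicate 1.

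Among tRNA methyltransferases and Trmu, 4 were higher and 1 lower in WTHK2 and 5 higher and 1 lower in LAC, of 13. That is 38.5% and 46.2% called, beside 46.4% and 49.5% of all genes. Without WTHK2 replicate 1 or without EV replicate 2 the number called higher in WTHK2 was 0, and in LAC it was 4 or 5 whichever library was left out. Trmt10a, a guanosine methyltransferase of cytosolic tRNA, had the largest difference between WTHK2 and LAC after Sars2. It had 53.7, 55.7 and 52.2 CPM in WTHK2, 40.2, 44.2 and 38.5 CPM in LAC, and 49.0, 52.6 and 50.9 CPM in EV. All LAC values lay below all others, and WTHK2 and EV overlapped. The log2 fold change was -0.31 in LAC against EV (adjusted p = 5.84e-04, limma), 0.082 in WTHK2 against EV (adjusted p = 0.302) and 0.39 in WTHK2 against LAC (adjusted p = 2.22e-04).

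Trmt10c, a related enzyme that in mitochondria also forms part of the RNase P that trims tRNA ends, was higher in both groups. It had 65.6, 61.0 and 60.5 CPM in WTHK2, 71.9, 66.1 and 66.1 CPM in LAC, and 55.4, 53.5 and 58.7 CPM in EV. Both groups lay above EV, by 0.28 in LAC (adjusted p = 6.32e-04, limma) and 0.16 in WTHK2 (adjusted p = 0.0344), the second call being lost without WTHK2 replicate 1, EV replicate 1 or EV replicate 2 (adjusted p of 0.137, 0.0891 and 0.141). Hsd17b10, its partner in that complex, was higher in WTHK2 (0.21, adjusted p = 3.02e-04) and in LAC (0.24, adjusted p = 5.51e-05). A gene crosses Trmt10c in the RefSeq table.

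Trmu, which thiolates mitochondrial tRNAs, had 30.0, 27.1 and 26.7 CPM in WTHK2, 28.2, 27.5 and 29.5 CPM in LAC, and 24.0, 22.1 and 24.8 CPM in EV. It lay above EV in both groups, with log2 fold changes of 0.23 in WTHK2 (adjusted p = 0.0191, limma; lost without WTHK2 replicate 1 or EV replicate 2, at 0.0937 and 0.0992) and 0.26 in LAC (adjusted p = 0.00976; lost without EV replicate 2, at 0.0602). Trmt2a, a uridine methyltransferase, rose by 0.20 in both WTHK2 (adjusted p = 0.00934; lost without WTHK2 replicate 1 or EV replicate 2, at 0.0552 and 0.0595) and LAC (adjusted p = 0.007). Trmt1l was at 0.053 in LAC and was called higher in WTHK2 (0.16, adjusted p = 0.0356), a call lost without WTHK2 replicate 1 or 3 or EV replicate 2 or 3 (0.0681 to 0.137).

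Trmt1, a guanosine dimethyltransferase, and Trmt112, the activating subunit of several methyltransferases, rose in LAC. Trmt1 had 86.8, 75.5 and 82.5 CPM in WTHK2, 96.8, 87.3 and 97.4 CPM in LAC, and 76.7, 77.2 and 79.2 CPM in EV, a log2 fold change of 0.27 in LAC (adjusted p = 7.36e-04, limma) and 0.067 in WTHK2 (adjusted p = 0.349). It overlaps Nacc1, which was lower in both groups. Trmt1 was lower in WTHK2 than in LAC (-0.20, adjusted p = 0.0194; lost without WTHK2 replicate 2, LAC replicate 1 or LAC replicate 3, at 0.127, 0.0702 and 0.101). Trmt112 had 102, 99.8 and 105 CPM in WTHK2, 126, 112 and 122 CPM in LAC, and 105, 106 and 104 CPM in EV. LAC lay above all other libraries, by 0.18 against EV (adjusted p = 0.00401), and WTHK2 was lower than LAC (-0.22, adjusted p = 0.00325).

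Trmt6, a subunit of a tRNA methyltransferase, was lower in WTHK2 than in EV (-0.13, adjusted p = 0.0337, limma). That call was lost without WTHK2 replicate 1 or any EV replicate (0.0684 to 0.165) and under both rescalings. Its catalytic partner Trmt61a was at -0.011 (adjusted p = 0.876). The 95% intervals of Trmt6 and Trmt61a overlapped (-0.23 to -0.029 and -0.12 to 0.094). Trmt11, a partner of Trmt112, was at -0.14 in WTHK2 (adjusted p = 0.0666) and 0.038 in LAC. In WTHK2 against LAC Trmt11 was at -0.18 (adjusted p = 0.0533, limma), with the groups not overlapping. Alternatives that called it lower there included a 50 CPM floor on the mean (adjusted p = 0.0463), both rescalings (0.0470 and 0.0410) and leaving out LAC replicate 1 (0.0145).

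Of 4 pseudouridine synthases, 0 were called in WTHK2 against EV, and 1, Pus1, was higher in LAC. That is 0% and 25% called, beside 46.4% and 49.5% of all genes. Pus1, an enzyme of cytosolic and mitochondrial tRNAs, had 80.8, 70.2 and 72.1 CPM in WTHK2, 77.0, 73.6 and 78.2 CPM in LAC, and 68.5, 68.3 and 66.9 CPM in EV. Both groups lay above EV. The log2 fold change was 0.17 in LAC (adjusted p = 0.0199, limma; lost without LAC replicate 1, LAC replicate 3 or EV replicate 3, at 0.0514, 0.0734 and 0.0613) and 0.13 in WTHK2 (adjusted p = 0.0692; called under both rescalings, at 0.0230 and 0.0235). Pus7 was at -0.12 in WTHK2 (adjusted p = 0.0894) and -0.11 in LAC. Pus3, which overlaps Hyls1, was at -0.17 in WTHK2 against LAC (adjusted p = 0.104, limma), with the groups not overlapping.

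In all, 17 members were not called in any comparison, among them Dars, Tars, Farsb and Tarsl2 in the cytosol, Fars2, Hars2 and Lars2 in mitochondria, AIMP2, and Pus3, Pus7 and Pus10. Their log2 fold changes lay between -0.18 and 0.15, and the 95% intervals reached from -0.32 to 0.33 over these genes.

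Genes of neighbouring steps were read from lists chosen with earlier results of these data known. Of 37 listed genes of other tRNA modifications, 6 were higher and 4 lower in WTHK2 and 9 higher and 2 lower in LAC. The medians were 0.043 and 0.086. That is 27.0% and 29.7% called, beside 46.4% and 49.5% of all genes. Without WTHK2 replicate 1 or EV replicate 2 the 6 became 3. Mettl6, a serine tRNA methyltransferase, was higher in LAC only (0.32 against EV, adjusted p = 2.86e-04, limma; -0.29 in WTHK2 against LAC, adjusted p = 0.00239). Gtpbp3, a mitochondrial tRNA modifier, was higher in WTHK2 (0.21) and LAC (0.34), the call in WTHK2 being lost without WTHK2 replicate 1 or 3 or EV replicate 1 or 2 (adjusted p 0.0679 to 0.196), while Qtrt2, a subunit of the queuine transferase, was lower in WTHK2 (-0.37).

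Of 21 genes for RNA polymerase III and its factors, which make tRNA, 5 were higher and 7 lower in WTHK2. In LAC 5 were higher and 6 lower. The medians were -0.065 and -0.0055. That is 57.1% and 52.4% called, beside 46.4% and 49.5% of all genes. Without EV replicate 2 the falls numbered 3 in WTHK2 and 3 in LAC, without LAC replicate 1 they numbered 3 in LAC, and without WTHK2 replicate 2 or EV replicate 3 the rises numbered 3 in WTHK2. Bdp1, an initiation factor, was lower in WTHK2 (-0.31) and LAC (-0.15; lost without LAC replicate 1 or 3 or EV replicate 2 or 3, adjusted p 0.0504 to 0.155, and under both rescalings), and Polr1d, a subunit shared with polymerase I, was higher (0.17 and 0.25). Of 20 genes of tRNA trimming, splicing and export, 9 were higher and 2 lower in WTHK2. In LAC 6 were higher and 2 lower. That is 55% and 40% called, beside 46.4% and 49.5% of all genes. The 9 became 4 without WTHK2 replicate 1 and 5 without WTHK2 replicate 2 or any EV replicate. Both falls were export receptors: Xpot, which carries tRNA out of the nucleus, averaged 272 ± 0.669 CPM in WTHK2, 291 ± 4.65 CPM in LAC and 343 ± 3.23 CPM in EV (SD, n = 3 each), a log2 fold change of -0.33 in WTHK2 (adjusted p = 2.55e-07, limma) and -0.23 in LAC (adjusted p = 1.59e-05), and Xpo5 was at -0.21 and -0.15. Tsen34, of the tRNA splicing endonuclease, was higher by 0.31 in WTHK2 and 0.23 in LAC.

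Of 9 genes listed for the use and quality control of charged tRNA, 4 were higher and 0 lower in WTHK2 and 2 higher and 0 lower in LAC. The list was broad and also held Eef1e1, the scaffold left out by the rule, and Secisbp2. That is 44.4% and 22.2% called, beside 46.4% and 49.5% of all genes. Ptrh2, a peptidyl-tRNA hydrolase of mitochondria, averaged 49.6 ± 3.05 CPM in WTHK2, 46.7 ± 2.6 CPM in LAC and 38.8 ± 1.86 CPM in EV, with log2 fold changes of 0.35 (adjusted p = 3.32e-04, limma) and 0.26 (adjusted p = 0.00307). Tufm, the elongation factor that brings charged tRNA to mitochondrial ribosomes, was higher by 0.12 and 0.23.

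Genes of the amino acid response were taken from a list chosen with earlier results of these data known. Of 21 listed, 1 was higher and 12 lower in WTHK2 than in EV, with a median of -0.19, and 6 were higher and 5 lower in LAC, with a median of -0.0058; without EV replicate 1 or 2 the 5 became 3. Between WTHK2 and LAC, 0 were higher and 13 lower in WTHK2. In WTHK2 against EV and against LAC 8 were not called, and among all genes 25.4% were lower in WTHK2 than in EV, 27.1% in LAC than in EV and 7.76% in WTHK2 than in LAC. Atf4 itself averaged 296 ± 15.7 CPM in WTHK2, 374 ± 9.87 CPM in LAC and 333 ± 7.68 CPM in EV, lower in WTHK2 (-0.17, adjusted p = 0.00189, limma) and higher in LAC (0.17, adjusted p = 0.00189). ASNS, asparagine synthetase, averaged 24.9 ± 0.716 CPM in WTHK2, 46.2 ± 5.97 CPM in LAC and 45.2 ± 2.5 CPM in EV, with log2 fold changes of -0.84 in WTHK2 (adjusted p = 1.49e-07) and 0.023 in LAC (adjusted p = 0.831). Atf5 was at -0.51 and 0.0070, Psat1, of serine synthesis, at -0.53 and -0.24, and Slc7a5, a carrier of large neutral amino acids, at -0.52 and -0.54.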

How the data were processed

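mRNA libraries of MI5-4 cells were sequenced by the authors, and the submitters' processing notes name STAR 2.7.0a, featureCounts 2.0.1, edgeR 3.8, cutadapt 1.18 and FastQC 0.11.8. Of build, annotation and strand setting, each is not given in the sources used here. Normalized CPM for 6753 genes in 9 libraries make up the deposited table. All values were whole multiples of a step per library within 0.01, which gave the effective library sizes. Because CPM are not counts, values were analysed as log2(CPM + 1) of the deposited CPM with limma 3.58.1 in R 4.3.3 (variance trend, all 9 libraries, no covariates, two-sided tests); a filter at a mean of 1 CPM removed 0 genes. The fit was tested on simulated data. Tables and figures used Python 3.11.15, numpy 2.4.6, pandas 2.3.3 and matplotlib 3.10.9.

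The members and lists were chosen with earlier results of these data known. Values and statistics were given for the 6 largest called changes per comparison, the 2 smallest adjusted p per role, Gars, KARS, both scaffolds and synthetase partners; other members named were chosen after their values were seen. Gene order and overlaps came from the RefSeq table of CriGri-PICRH-1.0, which matched 46 members and placed 35; chromosome 1 was left out. Overlaps were found for 11. No sequence was used here. Alternatives were other pseudocounts, filters, scalings, fits, thresholds and left-out libraries. Values of 1 member and 1 listed gene are not reported here; both remain in the counts and medians.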

Additional observations from a re-analysis of the deposited data

How the results depend on the processing

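No member called in a comparison changed sign under the alternatives run. At a threshold of 0.01, 6 members were higher in WTHK2 and 9 in LAC against EV. The share of all genes at that threshold is not given here. Restricted to a mean of at least 50 CPM, the cytosolic minus mitochondrial median in WTHK2 against EV was -0.29. Leaving out each library in turn gave 6 to 12 members higher and 8 to 11 lower in WTHK2 against EV. In LAC against EV 10 to 16 were higher and 4 to 6 lower, and in WTHK2 against LAC 2 to 3 higher and 6 to 11 lower. The share of all genes called moved as well, over 36.2% to 48.7%, 39.2% to 52% and 9.8% to 18.9% in these comparisons. The cytosolic minus mitochondrial median ran from -0.29 to -0.17, -0.12 to -0.069 and -0.19 to -0.12 in the same comparisons. Without the 11 members found to share an interval with another RefSeq gene, 5 were lower in WTHK2 and 2 in LAC against EV, instead of 9 and 6. The falls left out were those of EPRS, Iars and Iars2 in both groups, Gars in WTHK2 and Wars in LAC. The rises left out were those of Trmt10c in both groups and of Hars and Trmt1 in LAC. The part of shared reads in these calls was not tested. Members that were not placed were kept in these counts, although their overlaps were not checked. With the replicate number as a block, 14 members were higher and 12 lower in WTHK2 against EV, 16 and 6 in LAC against EV, and 3 and 12 in WTHK2 against LAC. The block also moved the share of all genes called, to 50.8%, 53.4% and 20.9% in the same comparisons. Same-numbered libraries of different groups correlated by -0.0057 to 0.44 in their deviations, and differently numbered ones by -0.33 to 0.19. Because the same-numbered ones were not all over 0.1, the numbers were not taken to pair the samples. Whether they do is not known. Pseudocounts of 0.25 and 4, no filter, both rescalings, a fit of 6 libraries and no variance trend kept the counts of all members within 1.5 times the main ones. The planned edgeR fit was not run, since the table holds no counts. Voom on reads recovered from the steps, chosen after seeing the data, gave 12 higher and 10 lower, 15 and 6, and 2 and 10. With voom 47.3%, 49.7% and 16.2% of all genes were called. The standard error was 0.032 for KARS, at a mean of 493 CPM, and 0.091 for Trmt44, at a mean of 27.4 CPM. The parts of depth and of the spread among 3 libraries a group in the precision were not tested.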
